A study of Homo sapiens with 6 samples.

Results

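The genes of the mitochondrial ribosomal proteins were examined in KMS27 cells with and without HA-TAZ overexpression. Members were all gene IDs whose symbol in the authors' deposited table is MRPL or MRPS followed by a number and at most a letter from A to C. This rule found 86 of 63677 gene IDs, with 76 symbols, 29 named MRPS and 47 named MRPL. It used names only and no measured value. The symbol MRP63, an older name of MRPL57, is not matched by it and is given with the related genes.

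KMS27 is an established human line of malignant plasma cells from multiple myeloma. Wild type KMS27 cells gave 3 libraries and KMS27 cells with HA-TAZ gave 3, per the labels, where TAZ is the coactivator of transcription that WWTR1 encodes and the Hippo pathway restrains, and HA is a tag. Total RNA was depleted of ribosomal RNA and sequenced in stranded, paired-end libraries. No promoter, clone or vector is named in the labels, and nothing says that the libraries of a group came from separate cultures, so p-values measure only the spread between these libraries. The HA-TAZ columns carry a number as the titles do and keep it here (HA-TAZ 1 to 3). The name of the remaining 3 columns, scr, is in no label. These columns were assigned to wild type by elimination, with the letters a to c in place of a number, and whether these cells carried a control construct is not stated in the labels. HA also stands in each wild type title, although the treatment label there is wild type.

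Values are TPM, which correct for transcript length and state a share of a library. They carry no read depth, so the depth of each library is unknown. For the comparison each library was divided by a median-of-ratios factor (0.866, 0.967 and 0.890 for HA-TAZ 1 to 3 and 1.21, 1.09 and 1.06 for control a to c), which gives scaled TPM. The test, for genes whose mean reached 1 TPM, was limma on log2(scaled TPM + 1), and a gene is called where its Benjamini-Hochberg adjusted p over 22651 genes is under 0.05. WWTR1 was at 339, 316 and 329 scaled TPM in HA-TAZ and at 2.22, 2.03 and 1.602 in control libraries. All 8 plasma cell markers examined were above 1 TPM, with means from 14.2 to 3124 TPM. Their summed deposited TPM was 2777 to 3210 in HA-TAZ and 4266 to 4821 in control libraries, most of it from IGJ. These sums are not scaled. The log2 difference of IGJ between HA-TAZ and control was −0.63 as deposited and −0.33 with scaling, where it was not called. The median of the 8 markers was −0.36 as deposited, beside −0.27 over all genes, and −0.069 with scaling. With scaling CD38 was called lower, with a log2 difference of −0.61, and 0 of the 8 were called higher. The scaled difference was negative for 6 of the 8 and positive for 2, the larger of these at 0.37. The part of these levels in the results below was not tested. No marker examined of B cells, T cells, myeloid cells, stroma or epithelium had a mean above 3.08 TPM.

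Mitochondria have their own ribosome, which translates the few messenger RNAs made from mitochondrial DNA. These encode core subunits of the respiratory chain and of ATP synthase, while the proteins of the mitochondrial ribosome are encoded in the nucleus, made in the cytosol and imported. The small subunit reads the messenger RNA and the large subunit joins the amino acids. Some of the proteins have counterparts in bacterial ribosomes, and others are found only in mitochondria.

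Promoters are shown first because they carry letters that many members have in common. RefSeq promoter windows, from 250 bases before to 50 bases after the annotated start (GRCh38.p14), were matched by symbol for 67 of the 76 symbols. The motif CCGGAAG, which factors of the ETS family such as GABPA bind, was found on either strand in 29 of the 67 (43.3%). This stands against 10.3% of all 35116 windows of this length and 16.5% of 15843 protein-coding genes. Members and protein-coding genes were each counted once, with a match in any of their windows, while the first share counts single windows. The pairs below follow the same order. ATGGCGGC, the core of the YY1 motif, was in 18 (26.9%), against 3.00% and 5.23%. The longer YY1 motif, AAG followed by that core, was in 10 (14.9%), against 0.849% and 1.58%. The NRF1 motif, GCGCA, any base and GCGC, was in 8 (11.9%), against 5.78% and 9.67%. The E-box CACGTG, bound by MYC, was in 9 (13.4%), against 7.26% and 10.9%. GGAATG, the motif of the TEAD factors through which TAZ acts, was in 11 (16.4%), against 14.0% and 15.6%. The ETS and YY1 letters were thus the ones whose share in these promoters stood farthest from the share in protein-coding genes. A match is a description of the sequence and not a bound site. Whether matches after the start, such as those of YY1 letters that hold ATG, lie in coding sequence was not examined.

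The windows of 5 genes called higher in HA-TAZ libraries show these letters and their absence. Each runs 5′ to 3′ on the gene's strand from 170 bases before the start to 30 bases after it, with motif letters in capitals. It is shorter than the window searched, and the TEAD motifs of MRPL43 and MRPL9 lie outside the printed stretch. All 5 genes lie on the minus strand of GRCh38.p14.
MRPL43 (chr10:100987468-100987667) holds the ETS motif, in capitals.
MRPL43: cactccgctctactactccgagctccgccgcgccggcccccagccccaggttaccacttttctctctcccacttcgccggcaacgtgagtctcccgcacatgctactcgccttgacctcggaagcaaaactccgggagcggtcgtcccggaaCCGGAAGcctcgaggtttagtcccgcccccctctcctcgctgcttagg
MRPL53 (chr2:74472651-74472850) holds the ETS motif on both strands.
MRPL53: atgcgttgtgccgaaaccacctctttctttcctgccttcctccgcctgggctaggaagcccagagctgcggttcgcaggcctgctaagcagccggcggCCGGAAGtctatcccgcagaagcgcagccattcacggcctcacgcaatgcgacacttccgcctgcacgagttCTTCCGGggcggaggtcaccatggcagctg
MRPS18A (chr6:43687762-43687961) holds the ETS motif and the long YY1 motif.
MRPS18A: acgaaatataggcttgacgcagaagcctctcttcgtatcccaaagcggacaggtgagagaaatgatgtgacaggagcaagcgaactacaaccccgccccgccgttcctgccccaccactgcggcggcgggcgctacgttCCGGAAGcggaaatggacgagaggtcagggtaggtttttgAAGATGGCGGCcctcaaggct
MRPL9 (chr1:151763467-151763666) holds the YY1 core after its start.
MRPL9: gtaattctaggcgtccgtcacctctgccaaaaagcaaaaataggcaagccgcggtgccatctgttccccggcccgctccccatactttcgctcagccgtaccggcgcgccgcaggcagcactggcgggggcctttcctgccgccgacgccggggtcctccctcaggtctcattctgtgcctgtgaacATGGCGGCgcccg
MRPL55 (chr1:228109270-228109469) holds none of the motifs searched.
MRPL55: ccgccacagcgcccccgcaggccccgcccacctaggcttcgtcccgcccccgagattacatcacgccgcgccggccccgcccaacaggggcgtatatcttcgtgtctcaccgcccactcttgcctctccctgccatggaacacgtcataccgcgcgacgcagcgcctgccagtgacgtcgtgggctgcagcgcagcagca
Of the 12 called symbols, all with a promoter in the table, 3 held the ETS motif (MRPL43, MRPL53 and MRPS18A), beside 29 of the 67 members. The windows of all 3 are printed above. The YY1 core was in 4 of them (MRPL9, MRPS15, MRPS18A and MRPS35). The TEAD motif was in 3 (MRPL43, MRPL9 and MRPS15). The NRF1 motif was in 2 (MRPL17 and MRPL45), the E-box in 2 (MRPL45 and MRPL49) and the long YY1 motif in 1 (MRPS18A).

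All 76 symbols were expressed. Summed over the gene IDs of a symbol and averaged over the 6 libraries, deposited TPM ran from 11.9 for MRPL50 to 150 for MRPL3, a ratio of 12.6, with a median of 37.6 and quartiles of 26.7 and 50.9. Between 20 and 80 TPM lay 62 of the 76 symbols. Whether this spread is narrow beside that of other gene sets was not tested. The highest mean levels were those of MRPL3, which reaches toward the peptidyl transferase centre, of MRPL4 in the wall of the exit tunnel, and of MRPS24 and MRPS33 in the small subunit. They were at 150 TPM for MRPL3, 96.5 for MRPS24, 80.8 for MRPS33 and 79.3 for MRPL4. MRPL3 stood apart from the next by more than its spread between libraries, at 137 to 159 scaled TPM in the 6 libraries, while MRPS24 ran from 85.0 to 111 and overlapped with MRPS33, which ran from 59.2 to 96.7.

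The test covered 84 gene IDs and all 76 symbols. The 2 gene IDs that missed the filter are second copies of MRPS36 (ENSG00000262605), listed at 0 in 5 libraries and at 0.0420 scaled TPM in HA-TAZ 3, and of MRPL30 (ENSG00000273155), at 0.320 to 1.19 scaled TPM. For 8 members the 6 values equal those of another member, since MRPS18B has 7 gene IDs and MRPL45 has 2. Reads of such copies are split by the quantification, and these values are uncertain.

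A minority of the mitochondrial ribosomal protein genes were called, all of them higher in HA-TAZ libraries after scaling. In RNA of whole cultures, fewer cells of a kind and less RNA per cell cannot be told apart. Of the 84 tested gene IDs, 13 were called higher, with 12 symbols, and 0 were called lower (limma, Benjamini-Hochberg). This is 15.5% of the members, against 4.67% of all genes tested that were called higher and 2.63% that were called lower. At an unadjusted p under 0.05, 49 members were higher (58.3%) and 0 lower, where 16.6% of all genes were higher and 14.1% lower. The difference was positive for 76 members and negative for 8, whereas 46.7% of all genes and 60.8% of the 11666 protein-coding genes had a positive one. The median log2 difference was 0.25 over the members, with quartiles of 0.15 and 0.35, against −0.025 over all genes and 0.062 over protein-coding genes. The scaled TPM of the groups did not overlap for 58 members, all higher in HA-TAZ libraries (69.0%), where 20.2% of all genes were higher and 18.3% lower without overlap. The exact two-sided permutation p of these 58 was 0.1 (n = 3 in each group), the smallest that 3 against 3 libraries can give. The adjusted p lay between 0.05 and 0.1 for a further 27 members. With gene IDs of identical values counted once, 12 of 78 were called, 70 were positive, 52 were higher without overlap, and the median was 0.24.

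The direction rests on the scaling. With TPM as deposited, 1 member was called higher (MRPL55) and 3 lower (MRPS25, MRPS27 and MRPS5). Of all 22651 genes, 3329 were called in that setting, and 1.15% were called higher. With an unadjusted p under 0.05 (limma) as deposited, 3 members were higher and 10 lower. Of all genes, 2.88% were higher and 37.9% lower at that threshold. The median over members was −0.032 beside −0.27 over all genes. Scaling divides all genes of a library by the same factor, and with 1 added before the log2 it moves low genes less. The members lay above the median of all genes by 0.27 with scaling and by 0.24 without it. The median over protein-coding genes alone was higher than that of all genes, at 0.062 with scaling and −0.20 without it. The summed deposited TPM of the members was 3119, 3289 and 3025 in HA-TAZ and 3314, 3250 and 3136 in control libraries, and the sums overlapped. The summed scaled TPM was 3603, 3401 and 3400 against 2741, 2980 and 2966, with no overlap. With factors from protein-coding genes 8 members were called higher and 0 lower. Leaving out control a left 2 calls and leaving out control c left 1, while 0 were left without HA-TAZ 1, HA-TAZ 2, HA-TAZ 3 or control b in turn. At an unadjusted p under 0.05, 40 to 46 members (47.6% to 54.8%) and 12.03% to 16.3% of all genes were higher in those fits, with 2 members lower without HA-TAZ 1 and 1 without control a, and the median over members stayed between 0.21 and 0.28.

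**Figure D1:**
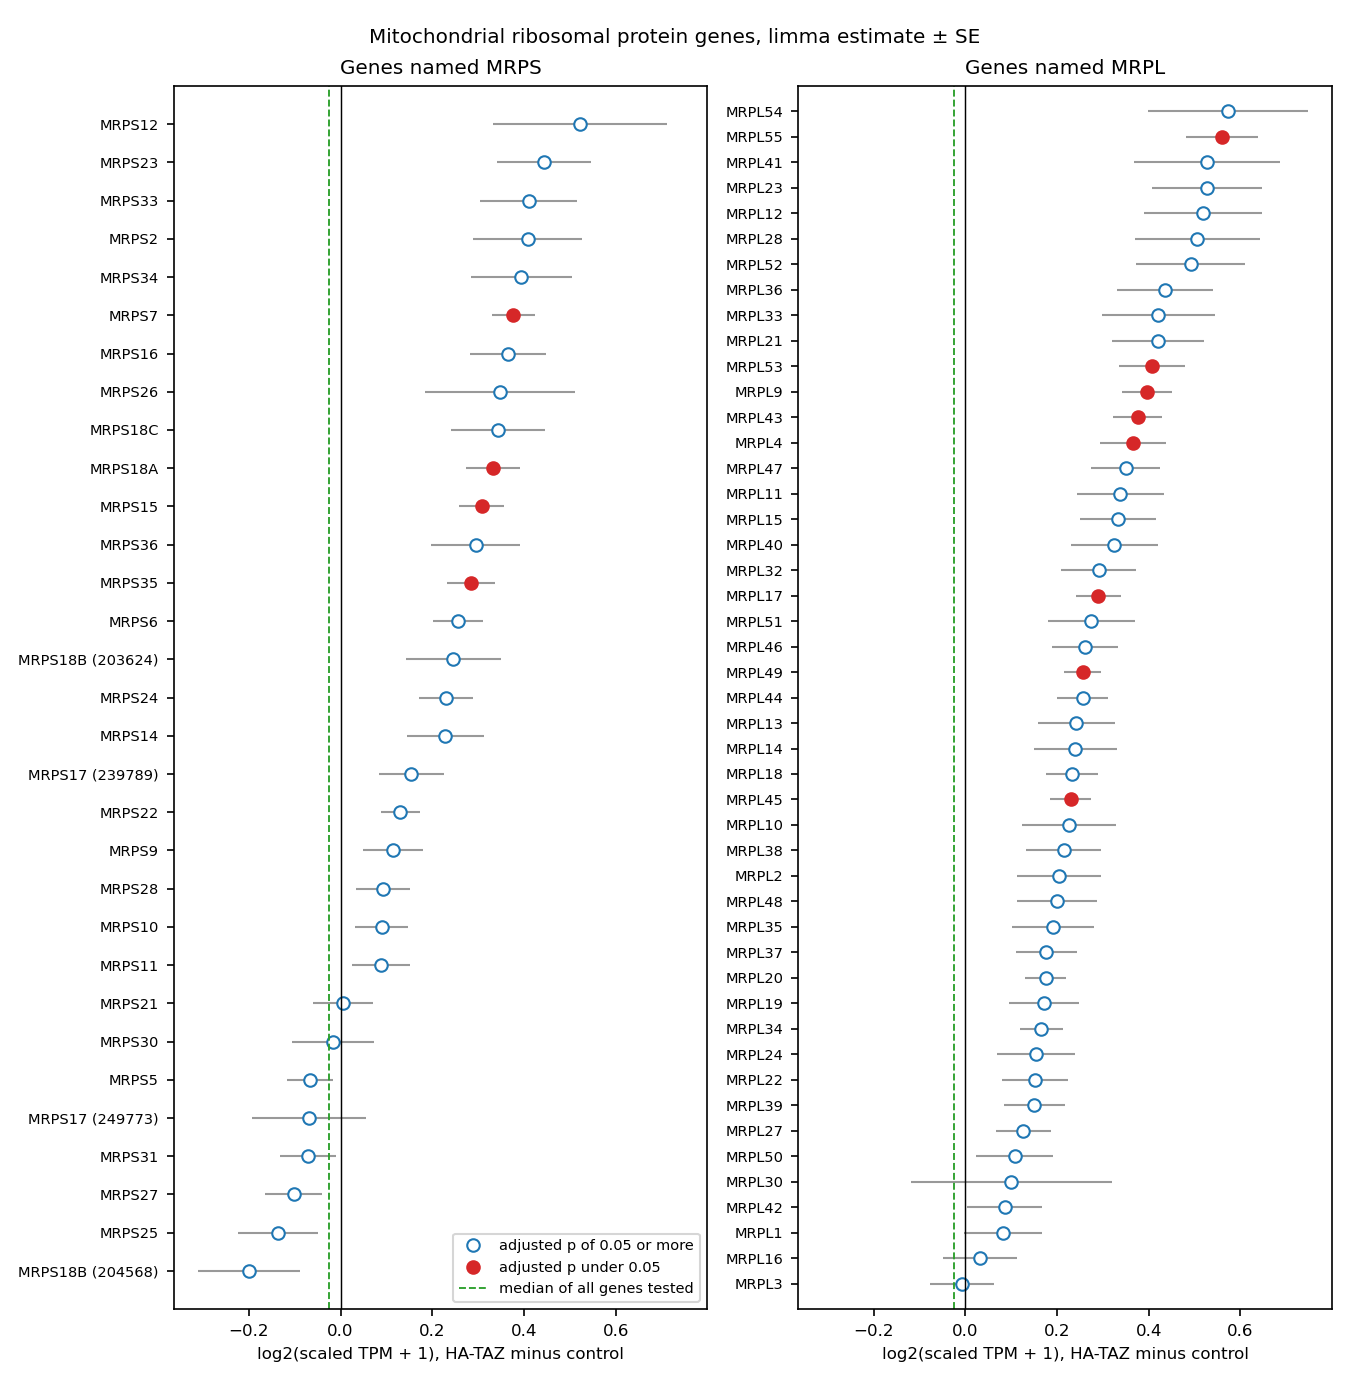
Log2 difference of scaled TPM + 1 between HA-TAZ and control libraries for each tested gene ID, with genes named MRPS on the left and MRPL on the right. Points are limma estimates, bars their standard errors, filled points have an adjusted p under 0.05, the dashed line is the median of all genes tested, and gene IDs with identical values are drawn once. Most points lie right of 0, and the filled ones run from 0.23 for MRPL45 to 0.56 for MRPL55.

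**Figure D2:**
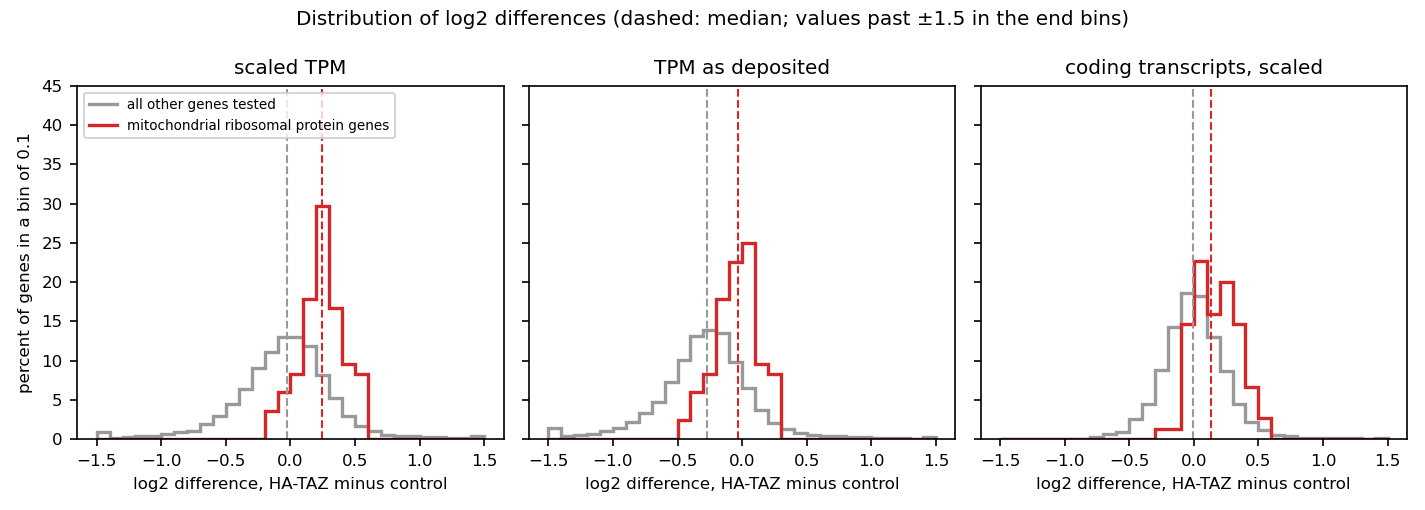
Distribution of log2 differences in bins of 0.1, as percent of genes, for the members and for all other genes tested, with scaled TPM, with TPM as deposited, and with scaled TPM of transcripts typed protein_coding only. Dashed lines are medians, and end bins hold the values past 1.5 on either side. The 2 curves are offset in all 3 panels, and the members' median moves from 0.25 to −0.032 without scaling and to 0.13 with coding transcripts.

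Proteins of the small subunit with bacterial counterparts had 2 called genes among 17 gene IDs (11.8%, where 4.67% of all genes were called higher). Their median log2 difference was 0.23, with a range from −0.069 to 0.52. MRPS7 (ENSG00000125445), a protein of the head of the small subunit, had the smallest adjusted p of all members. It was at 73.8, 71.8 and 69.2 scaled TPM in HA-TAZ and at 53.1, 56.8 and 54.9 in control libraries, so each HA-TAZ library lay above each control. Its log2 difference was 0.38 (SE 0.047, limma, Benjamini-Hochberg adjusted p = 0.0173). MRPS15 (ENSG00000116898), which contacts the ribosomal RNA near the subunit interface, was at 89.1, 82.6 and 81.2 scaled TPM against 66.6, 67.5 and 69.6. Its log2 difference was 0.31 (SE 0.050, limma, Benjamini-Hochberg adjusted p = 0.0321), and its control libraries lay closer together than its HA-TAZ libraries. MRPS12 (ENSG00000128626), a protein of the decoding centre, had the largest difference of this group and was not called. It was at 39.3, 36.1 and 43.7 scaled TPM against 20.7, 27.9 and 34.9, with a log2 difference of 0.52 (SE 0.19, limma, Benjamini-Hochberg adjusted p = 0.132). Its groups did not overlap, and control a, the lowest, lay farther from control c than control c lay from HA-TAZ 2. MRPS5 (ENSG00000144029) was at 47.6, 44.6 and 43.4 scaled TPM against 47.9, 48.1 and 46.1, a log2 difference of −0.066 that was not called. MRPS24 (ENSG00000062582) was at 111, 98.7 and 102 scaled TPM against 85.0, 88.9 and 91.5, a log2 difference of 0.23 that was not called (limma, Benjamini-Hochberg adjusted p = 0.0700).

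Proteins of the small subunit that are found only in mitochondria had 1 called gene among 16 gene IDs of 10 symbols. This is 6.25%, where 4.67% of all genes were called higher. Their median was 0.25, with a range from −0.20 to 0.44. The median is the shared value of 6 identical MRPS18B copies, and it stays at that value with the copies counted once. The called gene was MRPS35 (ENSG00000061794), at 25.8, 24.8 and 24.8 scaled TPM against 19.4, 20.7 and 21.3. Its log2 difference was 0.28 (SE 0.053, limma, Benjamini-Hochberg adjusted p = 0.0397). MRPS33 (ENSG00000090263) was at 96.7, 87.8 and 93.4 against 59.2, 73.4 and 76.8 scaled TPM, a log2 difference of 0.41 that was not called (limma, Benjamini-Hochberg adjusted p = 0.0688). This group held 4 of the 8 gene IDs with negative differences, none of them called after scaling. MRPS25 (ENSG00000131368) was at 26.1, 25.7 and 22.6 against 24.8, 29.2 and 28.2 scaled TPM, a log2 difference of −0.14. MRPS27 (ENSG00000113048), a pentatricopeptide repeat protein, was at 62.4, 56.1 and 55.3 against 62.3, 59.7 and 64.5, a log2 difference of −0.10. MRPS31 (ENSG00000102738) was at 11.3, 11.99 and 11.96 against 12.5, 11.8 and 12.9, a log2 difference of −0.071. The groups overlapped for each of these 3 genes.

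The 3 paralogues of the bacterial S18 protein sit at different places of the ribosome. MRPS18C takes the place of the bacterial protein, MRPS18B sits elsewhere in the small subunit, and MRPS18A is part of the large subunit despite its name. MRPS18A (ENSG00000096080) was at 33.7, 30.9 and 31.1 scaled TPM against 23.8, 25.7 and 25.9, with a log2 difference of 0.33 (SE 0.059, limma, Benjamini-Hochberg adjusted p = 0.0371). MRPS18C (ENSG00000163319) was at 56.0, 55.0 and 46.8 against 36.9, 45.4 and 41.4, with a log2 difference of 0.34 that was not called (limma, Benjamini-Hochberg adjusted p = 0.0923). Both paralogues were higher in each HA-TAZ library than in any control. MRPS18B has 7 gene IDs. One of them, ENSG00000204568, was at 10.3, 8.33 and 8.35 against 11.6, 9.51 and 10.3 scaled TPM, a log2 difference of −0.20, and the other 6 held the same values of 2.58, 2.50 and 2.97 against 1.98, 2.34 and 1.99, a log2 difference of 0.25. Neither value was called, and the difference was 0.12 when the gene IDs of each symbol were summed.

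Proteins of the large subunit with bacterial counterparts had 4 called genes among 30 gene IDs (13.3%, where 4.67% of all genes were called higher). Their median was 0.24, with a range from −0.0077 to 0.56. MRPL55 (ENSG00000162910), the counterpart of bacterial L31, was at 43.3, 42.2 and 43.4 scaled TPM against 25.6, 31.3 and 29.8, with a log2 difference of 0.56 (SE 0.079, limma, Benjamini-Hochberg adjusted p = 0.0247). It is also the member that was called higher with TPM as deposited, by 0.27. MRPL9 (ENSG00000143436) was at 84.1, 90.4 and 84.8 against 63.8, 69.2 and 63.5, with a log2 difference of 0.40 (SE 0.054, limma, Benjamini-Hochberg adjusted p = 0.0226). MRPL4 (ENSG00000105364), which reaches into the exit tunnel, was at 94.8, 83.3 and 91.1 against 64.2, 71.5 and 72.6, with a log2 difference of 0.36 (SE 0.072, limma, Benjamini-Hochberg adjusted p = 0.0444). For all 3 genes each HA-TAZ library exceeded each control. MRPL3 (ENSG00000114686), the most abundant member, did not follow them. It was at 152, 152 and 137 scaled TPM against 159, 142 and 143, a log2 difference of −0.0077 (SE 0.070), and the groups overlapped. The sign of MRPL3 changed with the library left out, to 0.048 without HA-TAZ 3 and 0.043 without control a.

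Proteins of the large subunit that are found only in mitochondria had 6 called gene IDs with 5 symbols among 20 gene IDs. This is 30% of the gene IDs, where 4.67% of all genes were called higher. Their median was 0.26, with a range from −0.017 to 0.57. The 5 were MRPL43, MRPL45, MRPL49, MRPL53 and MRPS18A. MRPL43 (ENSG00000055950) was at 41.6, 40.2 and 40.6 scaled TPM against 29.6, 31.1 and 33.0, with a log2 difference of 0.38 (SE 0.054, limma, Benjamini-Hochberg adjusted p = 0.0249). MRPL49 (ENSG00000149792) was at 29.9, 29.6 and 29.2 against 24.3, 24.9 and 24.6, with a log2 difference of 0.26 (SE 0.041, limma, Benjamini-Hochberg adjusted p = 0.0313). Both genes were higher in each HA-TAZ library than in any control. MRPL41 (ENSG00000182154) had a larger difference and a wider spread, at 18.9, 17.1 and 20.5 against 10.01, 13.2 and 15.5 scaled TPM. Its log2 difference was 0.53 (SE 0.16, limma, Benjamini-Hochberg adjusted p = 0.0924), and it was not called.

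The stalk of the large subunit, where elongation factors bind, is formed by MRPL10, MRPL11, MRPL12, MRPL53 and MRPL54. All 5 had positive differences, with a median of 0.41, where 60.8% of protein-coding genes had a positive one. Of the 5, 1 was called (20%, where 4.67% of all genes were called higher). MRPL53 (ENSG00000204822) was at 58.0, 48.4 and 54.5 scaled TPM against 40.4, 39.8 and 40.2, with a log2 difference of 0.41 (SE 0.072, limma, Benjamini-Hochberg adjusted p = 0.0371). MRPL54 (ENSG00000183617) had the largest difference of all members, at 34.7, 30.4 and 36.4 against 17.4, 22.7 and 28.2 scaled TPM. Its log2 difference was 0.57 (SE 0.17, limma, Benjamini-Hochberg adjusted p = 0.0948), and control c lay closer to HA-TAZ 2 than to control a. MRPL12 (ENSG00000262814), which binds the factors, was at 67.4, 56.3 and 69.3 against 38.2, 45.2 and 50.9, a log2 difference of 0.52 (limma, Benjamini-Hochberg adjusted p = 0.0650). MRPL11 (ENSG00000174547) was at 74.9, 68.2 and 69.8 against 48.8, 58.1 and 61.6, a log2 difference of 0.34, and MRPL10 (ENSG00000159111) was at 37.9, 37.4 and 36.2 against 26.9, 34.8 and 33.8, a log2 difference of 0.23. Control a was the lowest library for MRPL10, MRPL11, MRPL12 and MRPL54 and not for MRPL53.

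The exit of the peptide tunnel, where new proteins meet the inner membrane, is lined by MRPL17, MRPL22, MRPL23, MRPL24, MRPL45 and MRPL47. All 7 gene IDs had positive differences, with a median of 0.23, where 60.8% of protein-coding genes had a positive one. Of the 7, 3 gene IDs with 2 symbols were called (42.9%, where 4.67% of all genes were called higher). MRPL17 (ENSG00000158042) was at 36.3, 33.8 and 36.3 scaled TPM against 29.5, 28.5 and 28.4, with a log2 difference of 0.29 (SE 0.049, limma, Benjamini-Hochberg adjusted p = 0.0342). MRPL45, which anchors the ribosome to the inner membrane, has 2 gene IDs with equal values (ENSG00000174100 and ENSG00000259980), each at 21.0, 21.4 and 20.7 against 18.2, 17.5 and 17.7. Its log2 difference was 0.23 (SE 0.046, limma, Benjamini-Hochberg adjusted p = 0.0444), the smallest of the called members. MRPL23 (ENSG00000214026) was at 66.6, 61.3 and 69.3 against 38.0, 47.4 and 51.6, a log2 difference of 0.53 that missed the threshold (limma, Benjamini-Hochberg adjusted p = 0.0563). MRPL47 (ENSG00000136522) was at 37.3, 36.8 and 34.6 against 25.5, 29.2 and 30.2, a log2 difference of 0.35 (limma, Benjamini-Hochberg adjusted p = 0.0510). The groups did not overlap for these 4 genes. MRPL22 (ENSG00000082515) and MRPL24 (ENSG00000143314) overlapped between the groups, each with a log2 difference of 0.15.

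MRPS36 carries a ribosomal name and is known as a part of the oxoglutarate dehydrogenase complex. Its tested gene ID, ENSG00000134056, was at 16.7, 13.7 and 14.8 scaled TPM against 11.2, 13.3 and 11.7, a log2 difference of 0.29 (limma, Benjamini-Hochberg adjusted p = 0.111). MRPS17 has 2 gene IDs. ENSG00000239789 was at 13.4, 12.9 and 13.8 against 10.9, 12.7 and 12.1 scaled TPM, a log2 difference of 0.15, and ENSG00000249773 was at 1.12, 1.16 and 0.992 against 0.932, 1.30 and 1.38, a log2 difference of −0.069. Neither was called.

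**Figure D3:**
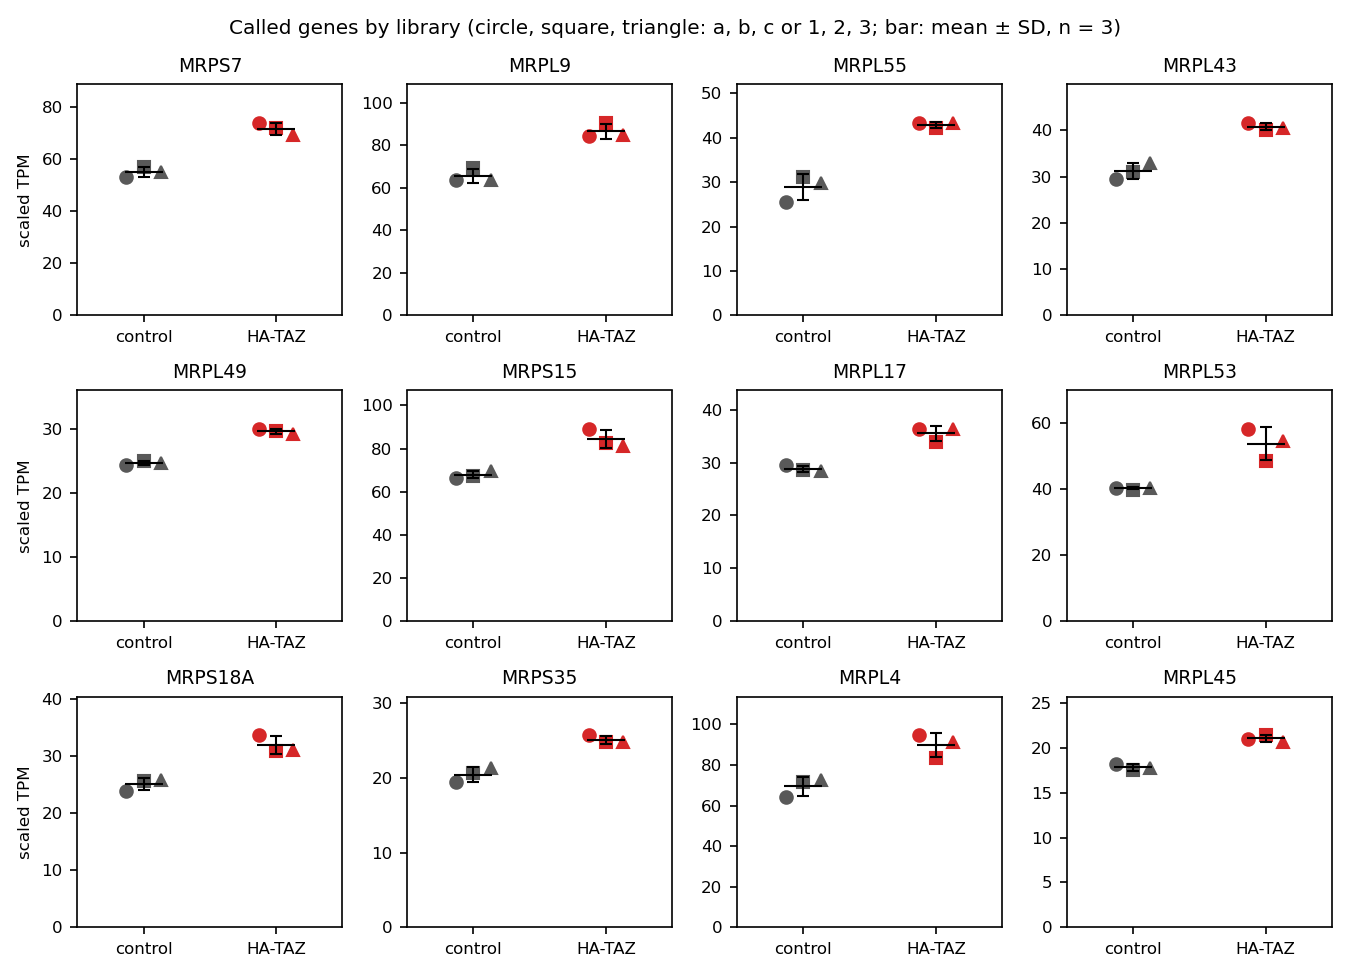
Scaled TPM of the 12 called symbols in each library, control on the left and HA-TAZ on the right of each panel, with axes from 0. Circles, squares and triangles are libraries a, b and c or 1, 2 and 3, and bars are the mean ± SD (n = 3 in each group). In every panel the 3 HA-TAZ libraries lie above the 3 control libraries, from 21.0 against 17.8 on average for MRPL45 to 86.5 against 65.5 for MRPL9 and 89.7 against 69.4 for MRPL4.

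The difference went with GC content. Over the 74 tested members with a main transcript in GENCODE release 29, of 84, the log2 difference had a Pearson r of 0.49 and a Spearman rho of 0.47 with the GC content of that transcript, which ran from 34.6% to 71.9%. These are correlations across genes of the same 6 libraries, and genes are not independent replicates. Over 11295 protein-coding genes r was 0.26. MRPL41, at 71.9% GC, and MRPL23, at 66.3%, lay at the upper end with differences of 0.53, and MRPL50, at 35.0%, had a difference of 0.11. The members with negative differences lay on both sides of the members' median GC content of 50.7%. MRPS31 (39.7%), MRPL3 (42.4%), MRPS25 (45.6%), MRPS30 (46.4%) and MRPS27 (46.5%) were below it, and MRPS17 (ENSG00000249773, 52.5%) and MRPS5 (52.8%) above it. Differences within the control group went with GC as well. Control a minus the mean of control b and control c had an r of −0.40 with GC over the members and −0.31 over protein-coding genes. For control c minus the mean of control a and control b these were 0.42 and 0.32. Without control a the r of the log2 difference was 0.42 over the members. The part of GC content in the difference was not tested. With transcript length the r over the members was −0.15 and the Spearman rho −0.28. Over protein-coding genes they were −0.050 and −0.0052.

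**Figure D4:**
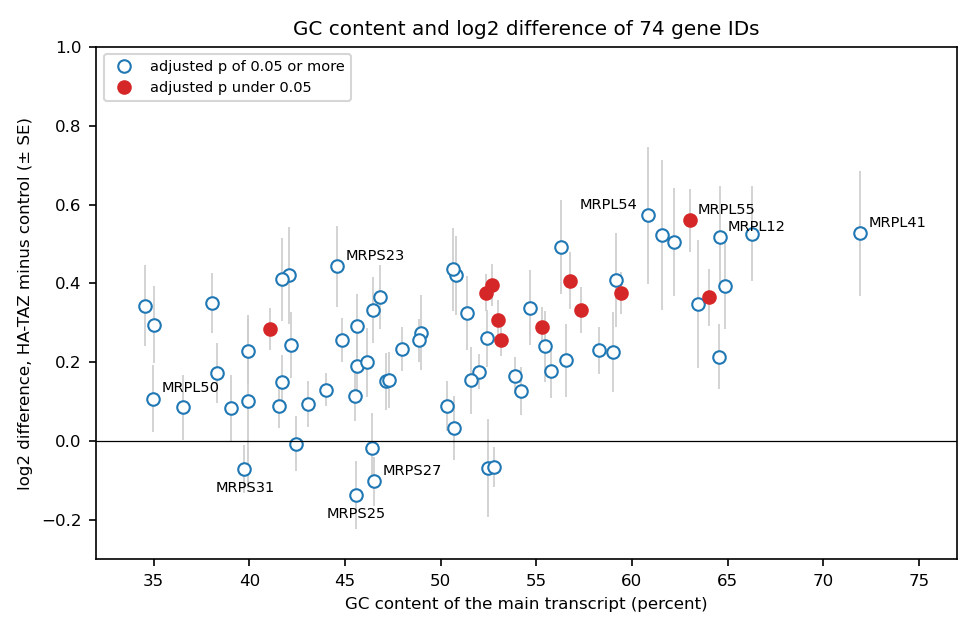
Log2 difference between HA-TAZ and control libraries (limma estimate ± SE) against the GC content of the main transcript, for the 74 tested members with a sequence. Filled points have an adjusted p under 0.05. Points rise from left to right with wide scatter (r = 0.49), and MRPL41 stands alone at 71.9% GC.

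Many members overlap other genes. Of the 76 gene IDs found in GENCODE release 29, 43 share exon sequence with another gene, 25 of them with a gene on the opposite strand only. Among the called symbols 7 overlap (MRPS7, MRPL9, MRPL43, MRPL49, MRPL53, MRPS18A and MRPL4) and 4 do not (MRPL55, MRPS15, MRPL17 and MRPS35), and MRPL45 is not in that release under these gene IDs. Use of the strand in the quantification is not given in the sources used here, so values of overlapping genes are uncertain.

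Transcripts of the members were followed in the authors' deposited table, which holds a Wald test for each transcript. Of 546 member transcripts 437 had statistics. At the authors' q under 0.05, 43 had a positive effect, from 41 symbols, and 3 a negative one, where 4.08% of all 109487 transcripts were positive and 1.6% negative at that threshold. The median effect in the authors' deposited table was 0.144 over the members and −0.00254 over all transcripts, on the natural log scale. Of the 43 positive calls in the authors' deposited table, 38 were transcripts typed protein_coding, out of 235 such transcripts with statistics. The median effect of those 235 was 0.226, against 0.101 over all transcripts of this type, in the authors' deposited table. The 76 member transcripts typed retained_intron keep an intron and code for no full protein. For them the authors' deposited table gave 2 positive and 2 negative calls and a median effect of −0.0312. The median over all transcripts of this type was −0.0738. Shares called over all transcripts of either type were not counted. A limma fit across 57448 transcripts called 1 of 327 member transcripts and 307 in all. The called one was a minor MRPL48 transcript typed nonsense_mediated_decay (ENST00000544819.1), at 3.08, 3.99 and 1.87 against 0, 0 and 0.0607 scaled TPM, with 2.67% of the gene's TPM.

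Positive calls fell on the major transcripts of many members. In the authors' deposited table MRPL12 (ENST00000333676.3, all of the gene's TPM) had the effect 0.378 (SE 0.0989) and q = 0.00521. MRPS23 (ENST00000313608.8) had an effect of 0.343 and q = 0.00181 in the authors' deposited table and held 89.6% of its gene's TPM. MRPL15 (ENST00000260102.4, 96.9% of the gene's TPM) had an effect of 0.252 and q = 0.00443 in the authors' deposited table. These 3 genes were not called in the fit of whole genes. MRPL44, MRPL41, MRPL54, MRPS35 and MRPS18A also had a positive call in the authors' deposited table on a transcript with 90.5% or more of the gene's TPM. The 3 negative calls fell on lesser transcripts. In the authors' deposited table a retained_intron transcript of MRPS5 (ENST00000475895.1) had an effect of −0.357 and q = 0.000773, a retained_intron transcript of MRPL3 (ENST00000506487.1) had −0.326, and a processed_transcript of MRPS25 (ENST00000496484.1) had −0.377. They held 22.8%, 10.7% and 20.7% of their genes' TPM. The median main transcript of a member rested on 1137 estimated counts in the authors' deposited table, a counting error of 2.97%.

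Coding transcripts held more of the members' RNA in HA-TAZ libraries. Transcripts typed protein_coding held 78.4%, 77.6% and 78.5% of the members' TPM in HA-TAZ and 72.1%, 75.4% and 75.8% in control libraries. Transcripts typed retained_intron held 7.94% ± 0.20 and 9.68% ± 1.27 (SD, n = 3 each). Over all protein-coding genes the coding share was 78.3% ± 0.40 against 76.1% ± 0.30 (SD, n = 3 each), so the same shift was seen outside the members. Per gene, the coding share was higher without overlap in 22 of 59 members that have both kinds of transcript and lower in 6, where 23.8% and 3.83% of 9987 protein-coding genes were. The median shift was 2.47 percentage points over the members and 2.27 over protein-coding genes.

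Single genes differed by more. In MRPS5 the coding share was 54.4%, 54.6% and 55.6% in HA-TAZ against 41.5%, 44.9% and 41.0% in control libraries. In MRPL3 it was 78.2%, 75.6% and 77.1% against 53.3%, 68.7% and 68.5%. In MRPS27 it was 54.7%, 59.3% and 55.8% against 43.5%, 49.3% and 44.9%. These 3 genes had negative differences as whole genes, and with coding transcripts alone their log2 differences were positive, at 0.15 for MRPS5, 0.13 for MRPL3 and 0.047 for MRPS27, with no call. MRPS14 and MRPL17 went the other way. The coding share of MRPS14 was 43.1%, 42.9% and 44.3% against 54.3%, 66.5% and 49.0%, and that of MRPL17 was 57.0%, 59.4% and 61.7% against 71.2%, 65.7% and 66.4%. The log2 difference of MRPL17, called at 0.29 for the whole gene, was −0.041 with coding transcripts alone. On that basis 15 of 75 members were called higher (limma, Benjamini-Hochberg), against 9.47% of all genes with such transcripts, 7 of them among the 13 called for whole genes, and the median over members was 0.13 against −0.00270 over all genes.

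**Figure D5:**
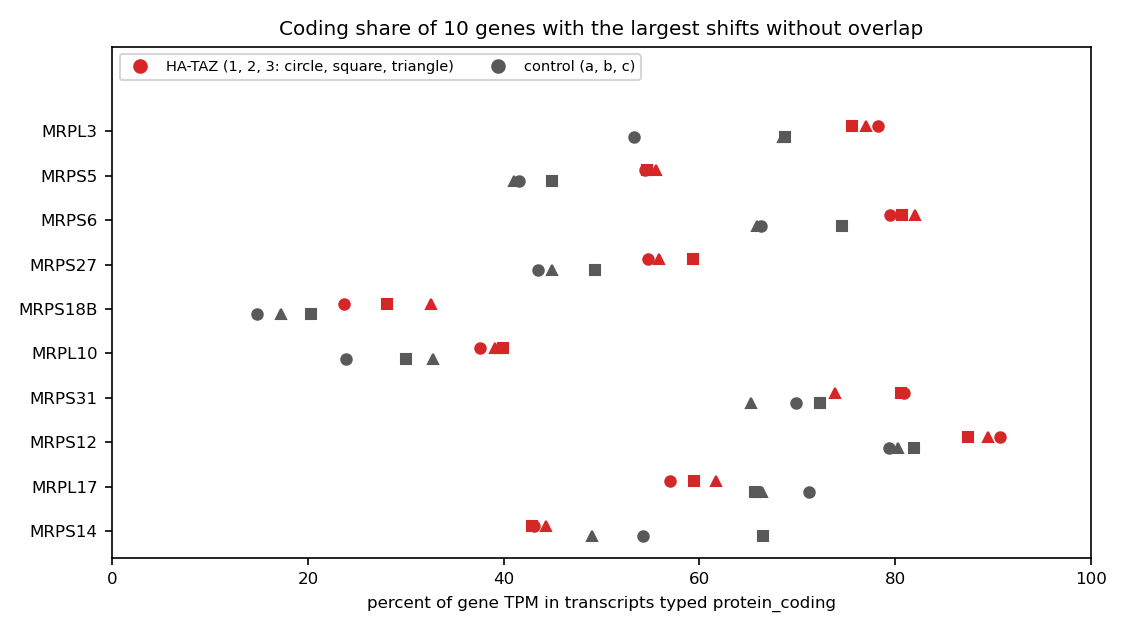
Percent of a gene's TPM held by transcripts typed protein_coding, by library, for the 10 members with the largest shifts among those whose groups do not overlap. Red marks are HA-TAZ and grey marks control libraries. The share is higher in HA-TAZ for 8 of the 10, led by MRPL3 and MRPS5, and lower for MRPL17 and MRPS14.

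Proteins of the mitochondrial ribosome with other names showed the same direction. All 7 had positive log2 differences with a median of 0.39, and 1 was called (14.3%, where 4.67% of all genes were called higher). With an unadjusted p under 0.05 (limma), 5 of the 7 were higher and 0 lower. Of all genes, 16.6% were higher and 14.1% lower at that threshold. ICT1, which frees stalled peptides, was at 65.3, 57.3 and 57.1 scaled TPM against 43.4, 44.4 and 48.1, a log2 difference of 0.39 (SE 0.073, limma, Benjamini-Hochberg adjusted p = 0.0394). MRP63, the older symbol of MRPL57, had a log2 difference of 0.087.

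Genes that build or serve this ribosome had smaller medians. Of 29 gene IDs of assembly factors 2 (6.90%) were called higher and 0 lower, where 4.67% of all genes were called higher. Their median was 0.15. With an unadjusted p under 0.05 (limma), 15 were higher and 1 lower, where 16.6% of all genes were higher and 14.1% lower. The called ones were NGRN, with a log2 difference of 0.27, and TRUB2, an RNA pseudouridine synthase, with 0.21. Of 15 mitochondrial translation factors 3 (20%) were called higher and 0 lower, with a median of 0.072. With an unadjusted p under 0.05 (limma), 6 of the 15 were higher and 0 lower. LRPPRC, which stabilises mitochondrial messenger RNAs, had a log2 difference of 0.24, the translational activator TACO1 of 0.43, and the elongation factor TSFM of 0.22. Of 21 gene IDs of mitochondrial tRNA synthetases and the glutamine amidotransferase 0 were called in either direction (limma, with 3 higher and 0 lower at an unadjusted p under 0.05), with a median of 0.11.

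Of 12 regulators of mitochondrial biogenesis 1 (8.33%) was called higher, where 4.67% of all genes were, and their median was 0.068. With an unadjusted p under 0.05 (limma), 5 of the 12 were higher and 0 lower. Of all genes, 16.6% were higher and 14.1% lower at that threshold. ESRRA, a nuclear receptor that acts on respiratory genes, was at 18.1, 15.8 and 18.6 scaled TPM against 10.4, 12.7 and 12.8, a log2 difference of 0.51 (SE 0.10, limma, Benjamini-Hochberg adjusted p = 0.0460). Each HA-TAZ library lay above each control. GABPB1, a partner of the ETS factor GABPA, had a log2 difference of 0.25 and GABPA one of −0.018, neither called. The differences of TFB2M (0.21), MYC (0.18) and TFAM (0.17) were not called either. PPRC1 (0.075), POLRMT (0.061), YY1 (0.053), PPARGC1A (0.042), PPARGC1B (−0.060) and NRF1 (−0.15) also missed the threshold.

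For comparison, 2 of 99 gene IDs of cytosolic ribosomal proteins were called higher (2.02%, against 4.67% of all genes) and 0 lower. Their median was 0.30. Of these 99, 92 had positive differences, and 75 were higher and 0 lower at an unadjusted p under 0.05 (limma). Of all genes, 16.6% were higher and 14.1% lower at that threshold. Of 13 protein-coding genes of the mitochondrial genome, whose messenger RNAs the mitochondrial ribosome translates, 0 were called in either direction (limma, with 0 higher and 0 lower at an unadjusted p under 0.05), with a median of −0.12 and a range from −0.63 to 0.21.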

How the data were processed

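RNA of 3 HA-TAZ and 3 wild type KMS27 samples was quantified by the authors with kallisto 0.46.0 and compared with sleuth 0.30.0, per the submitters' processing notes, which also name GRCh37, FastQC and MultiQC. The deposited values are TPM per transcript. The authors' deposited table gives, per the file headers, a p-value and q-value per transcript, an effect on the natural log scale and its standard error and variance components, and the mean natural log of scaled estimated counts.

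TPM was summed per gene ID. Size factors came from 21512 such genes listed above 0 in all libraries. Genes whose mean reached 1 TPM were fitted with limma 3.58.1 in R 4.3.3 (log2 of scaled TPM + 1, trend, two-sided, Benjamini-Hochberg, threshold 0.05), which was tested on simulated data. A fold on this scale understates low genes. Tables and plots used Python 3.11.15, pandas 2.3.3, numpy 2.4.6 and matplotlib 3.10.9. GENCODE release 29 gave types, overlaps and GC content only, and RefSeq gave promoters.

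Members and gene lists were chosen with earlier results of these data known. Named with values were the called members (up to 12), the 6 largest rises and falls, the 4 highest levels, members that missed the filter, the MRPS18 paralogues, the stalk and tunnel exit, up to 4 called genes of each related list, all 12 regulators, and up to 8 major transcripts with q under 0.05. Other genes named for their coding share or GC content were chosen after their values were seen. Alternatives were other scalings, filters and pseudocounts, no trend, each library left out, and, chosen after seeing the data, sums per symbol and coding transcripts only.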

Additional observations from a re-analysis of the deposited data

How the results depend on the processing

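All genes called numbered 1652, 3329 with TPM as deposited, 691 with no filter on level, 758 without the trend, and 118 to 470 with a library left out. Members called higher numbered 13, and 1 as deposited, 8 with protein-coding factors, 5 with no filter, 26 at a mean TPM of at least 5, 4 without the trend and 0 to 2 with a library left out, where 4.67%, 1.15%, 2.91%, 1.06%, 11.996%, 2.04% and 0.413% to 1.62% of all genes were. Members called lower numbered 0, and 3 as deposited. Called genes of the related lists numbered 7, and 0 as deposited, 2 with protein-coding factors, 1 with no filter, 11 at a mean TPM of at least 5, 0 without the trend and 0 with each library left out. The median over members was −0.032 as deposited, 0.18 with protein-coding factors, 0.13 with coding transcripts, and 0.21 to 0.28 with a library left out. In that order of 3 settings, medians were −0.14, 0.078 and 0.084 for assembly factors, −0.22, −0.00131 and 0.039 for translation factors, and −0.16, 0.041 and 0.035 for tRNA synthetases. Proteins of other names had 0.10 as deposited and 0.27 with coding transcripts, and regulators −0.21 as deposited and −0.00522 with protein-coding factors. With a library left out, these lists had 0.11 to 0.17, 0.046 to 0.12, 0.088 to 0.13, 0.28 to 0.44 and 0.045 to 0.10. The median of all genes was 0.040 at the stricter filter and −0.024 to −0.013 with a library left out.

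As deposited, MRPL10 (−0.066), MRPL17 (−0.00197), MRPL22 (−0.14), MRPL24 (−0.14), MRPL45 (−0.057), MRPL49 (−0.035), MRPS24 (−0.068) and MRPS35 (−0.00376) turned negative. With coding transcripts MRPL17 (−0.041) and MRPL24 (−0.012) turned negative, and MRPL3 (0.13), MRPS18B (0.22), MRPS27 (0.047) and MRPS5 (0.15) positive. Summed per symbol, MRPS17 had 0.13 and MRPS18B 0.12. MRPL3 ranged from −0.037 to 0.048 with a library left out. At q under 0.01 there were 18 positive and 1 negative calls of member transcripts in the authors' deposited table. The share of all transcripts called at that threshold was not counted. The pseudocount of 0.1 changed no call of a named member. The cause of these changes was not tested. No paired analysis was possible because the control columns carry a name that is in no label and matches no single wild type sample. A library's depth is unknown, which leaves the spread between libraries as the limit.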
